A study of Rattus norvegicus with 9 samples.

Results

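The genes of cholesterol synthesis, uptake and sterol sensing were followed in rat pXEN cells, primitive extraembryonic endoderm stem cells grown from the early lineage that gives rise to yolk sac endoderm. The set names 34 genes, and a gene entered the analysis with at least 10 reads in at least 3 of the 9 libraries, which 32 of the 34 did. The tables list 17315 genes, of which 9130 had enough reads to be tested. RNA was sequenced from 1 line, RX1 of the WKY rat strain, in 3 media with 3 libraries each. CPE cultures were grown on collagen I (10 µg/ml) in DMEM/F12 with Neurobasal, the N2 and B27 supplements and β-mercaptoethanol. To this were added 1 µM Chir99021, an inhibitor of the kinase Gsk3, and 10 ng/ml each of Pdgf and Egf. LPE cultures had the same coating and base, with 10 ng/ml Lif instead of Chir99021 beside the same Pdgf and Egf. T cultures were grown on fibronectin (100 ng/ml) in a DMEM/MCDB base with LA-BSA, ITS, ascorbic acid and β-mercaptoethanol. Further additives were 2% fetal bovine serum, the synthetic glucocorticoid dexamethasone at 0.5 µM, and the factors Pdgf, Egf and Lif at 10 ng/ml apiece. Serum, dexamethasone, coating, base and supplements all differ between T and the other media, so their contributions cannot be told apart. CPE differs from T also in having Chir99021 and no Lif, which joins these in CPE against T. The labels do not say that the libraries of a medium came from separate cultures, and p-values therefore measure the spread between libraries, which may be technical.

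Cells build cholesterol from acetyl-CoA through mevalonate, isoprenoids, squalene and lanosterol. When sterols in the endoplasmic reticulum are scarce, the escort protein Scap carries the membrane-bound transcription factors Srebp1 and Srebp2 (genes Srebf1 and Srebf2) to the Golgi, where they are cut free and switch on the synthesis genes. When sterols are plentiful, Insig proteins hold Scap back, while oxysterols activate the Lxr receptors, which raise genes of cholesterol efflux. Yolk sac endoderm is known for taking up maternal lipoproteins and passing lipid to the embryo.

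Promoter sequences are shown for 5 genes that stand for some of the patterns across media, so that the letters can be read beside the values given later. Genes higher only in LPE, lower only in CPE or not called are not among them. Lbr, Ebp and Insig1 were higher in both CPE and LPE than in T, Nsdhl was higher in CPE than in LPE, and Nr1h2 was lower in both CPE and LPE than in T. Each line gives the 250 bases before the gene's start, on the gene's strand, from RefSeq on build GRCr8, which is not the build of the counts (rn6). Lbr lies at chr13:96095710-96095959 (minus strand), Ebp at chrX:16971212-16971461 (plus strand), Insig1 at chr4:8057770-8058019 (minus strand), Nsdhl at chrX:155817110-155817359 (plus strand) and Nr1h2 at chr1:104183864-104184113 (minus strand). Capitals mark CCAAT, the core letters of the Nf-y box, or CACNCCAC, a short form of the sterol regulatory element, on either strand.
Lbr: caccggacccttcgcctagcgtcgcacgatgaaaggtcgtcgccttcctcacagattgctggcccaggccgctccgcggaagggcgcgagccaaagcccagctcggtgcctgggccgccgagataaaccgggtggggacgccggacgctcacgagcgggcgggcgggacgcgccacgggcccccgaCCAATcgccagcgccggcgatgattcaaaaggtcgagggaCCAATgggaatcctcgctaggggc
Ebp: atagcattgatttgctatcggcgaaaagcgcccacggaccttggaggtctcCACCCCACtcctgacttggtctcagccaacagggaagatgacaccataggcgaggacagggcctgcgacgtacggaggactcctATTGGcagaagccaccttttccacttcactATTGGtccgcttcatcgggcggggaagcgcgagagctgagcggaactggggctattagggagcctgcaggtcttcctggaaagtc
Insig1: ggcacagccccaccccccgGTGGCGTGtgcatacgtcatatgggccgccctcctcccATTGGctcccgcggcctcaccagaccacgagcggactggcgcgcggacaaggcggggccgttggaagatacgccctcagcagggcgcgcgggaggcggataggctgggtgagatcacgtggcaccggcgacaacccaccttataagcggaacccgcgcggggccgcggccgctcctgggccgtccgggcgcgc
Nsdhl: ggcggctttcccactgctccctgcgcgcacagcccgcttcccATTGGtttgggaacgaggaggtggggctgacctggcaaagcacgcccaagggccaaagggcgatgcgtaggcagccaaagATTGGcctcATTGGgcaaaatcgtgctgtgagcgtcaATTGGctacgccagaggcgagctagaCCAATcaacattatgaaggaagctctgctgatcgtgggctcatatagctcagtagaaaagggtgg
Nr1h2: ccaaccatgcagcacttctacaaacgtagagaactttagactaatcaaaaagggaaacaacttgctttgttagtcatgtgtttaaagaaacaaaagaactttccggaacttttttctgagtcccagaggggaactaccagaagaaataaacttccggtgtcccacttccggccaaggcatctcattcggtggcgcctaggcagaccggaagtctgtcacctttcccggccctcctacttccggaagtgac

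Of the 34 genes, 29 had a promoter in the RefSeq table, and Srebf1 had 2 promoters, giving 30. Over the 300 bases from 250 before to 50 after the start, CCAAT was present in 22 of the 30 promoters (73.3%), against 37.5% of all 33469 promoters and 38.2% of 7400 promoters of tested genes. By role, CCAAT stood in 14 of 17 synthesis genes and in 7 of 12 other genes of the set. By call, CCAAT stood in 8 of 12 genes higher in both CPE and LPE than in T, and in 13 of 17 others. Acat2, Cyp51, Dhcr7 and Npc1, all higher in both, had no CCAAT. The printed promoters thus do not show how CCAAT was spread over the calls, and a link between them was not tested. GGGCGG, the core of the Sp1 box, was in 24 promoters (80%), against 33.1% of all promoters and 65.5% of those of tested genes. The longer sterol regulatory element TCACNCCAC was in 0 of the 30, against 1.12% of all promoters and 1.12% of those of tested genes. The palindromic E-box TCACGTGA was also in 0, against 0.777% of all promoters and 1.74% of those of tested genes. The shorter CACNCCAC, added after the first scan and contained in the longer element, was in 3 promoters (10%), those of Acat2, Ebp and Insig1, against 5.8% of all promoters and 5.51% of those of tested genes. Ebp and Insig1 are printed above, so the printed promoters do not show how common CACNCCAC was in the set. These are matches of letters on both strands within a short window and describe the sequences only.

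Libraries held 3127352 to 4418465 gene reads in CPE, 3119049 to 3233526 in LPE and 1698764 to 2161228 in T. Although T had the fewest reads, it had the most genes with any read. These numbered 9162 to 9878 in CPE, 8607 to 9314 in LPE and 10143 to 10621 in T. All 12 primitive endoderm markers examined were detected in every medium, with summed levels of 14701 to 16936 CPM in CPE, 25436 to 29024 CPM in LPE and 11690 to 12821 CPM in T, most of which came from the matrix genes Lama1, Col4a1 and Sparc. CPM are counts per 1e+06 gene reads with TMM scaling. The markers moved in both directions. In CPE against T, Gata6, Sox7, Foxa2, Lama1 and Col4a1 were among those higher, and 4 were lower (Sox17, Pdgfra, Dab2 and Pou5f1). In LPE against T, 5 were higher (Gata6, Foxa2, Lama1, Col4a1 and Sparc) and 1 lower (Pdgfra). In CPE against LPE, 0 were higher and 6 lower (Sox17, Dab2, Pou5f1, Lama1, Col4a1 and Sparc). Of 8 fibroblast markers, 2 had a read in CPE, 0 in LPE and 4 in T, and their sum was 0 to 6.44 CPM in CPE, 0 CPM in LPE and 1.39 to 33.0 CPM in T, with Col1a2, Dcn and Lum at 0 in every library. Summed markers of neural cells were at 37.5 to 72.2 CPM in CPE, 12.7 to 40.9 CPM in LPE and 14.2 to 19.7 CPM in T, with Pax6 and Neurod1 at 0 in every library. Summed markers of endothelium and blood were at 17.0 to 22.7 CPM in CPE, 65.4 to 96.0 CPM in LPE and 22.9 to 33.0 CPM in T, with Ptprc and Hbb at 0 in every library. Summed markers of trophoblast were at 12.0 to 29.0 CPM in CPE, 0 to 3.11 CPM in LPE and 0.93 to 2.73 CPM in T, with Hand1 and Ascl2 at 0 in every library. Other markers of these lists were called. Neural Dcx was higher in CPE against T (log2 3.88) and against LPE (log2 3.21). Endothelial Pecam1 and Cdh5 were higher in LPE against T (log2 1.04 and 2.40) and lower in CPE against LPE (log2 -1.91 and -2.10). Trophoblast Elf5 had 33, 53 and 18 reads in CPE, 0, 0 and 0 in LPE and 1, 1 and 1 in T. It reached 10 reads only in CPE libraries, so it was tested through the medium where it was high. Its calls in CPE against T (log2 4.02, SE 1.27) and against LPE (log2 7.74, SE 1.62) are therefore descriptions, with sizes set by reads near 0. Cdx2, not tested, had 28, 0 and 70 reads in CPE and 0 in LPE and T. Reads mapping to several places made up 51.7% to 58.2% in CPE, 54.2% to 59.9% in LPE and 64.9% to 67.6% in T. They enter no gene, and the part of this difference, of depth, of genes detected and of the marker levels in the results below was not tested.

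Between the serum-free media and T, many members of the set were higher in CPE and LPE, and few were lower. In CPE against T, 15 of the 32 tested members rose, 2 fell and 15 were not called, where over all 9130 tested genes 16.8% rose and 15.3% fell. Their median log2 fold change was 0.57, against -0.01 over all genes. In LPE against T, 16 rose, 1 fell and 15 did not pass, where over all genes 15.0% rose and 14.7% fell. Their median log2 fold change was 0.64, against -0.03 over all genes. Both comparisons use the same 3 T libraries, so their counts are not independent of each other. In each pathway step and direction where 0 genes were called against T, 0 also had an unadjusted p under 0.05 and 0 were called by DESeq2. A gene is called higher or lower at an adjusted p under 0.05 by edgeR's quasi-likelihood test with Benjamini-Hochberg adjustment over all 9130 genes, and every adjusted p is of this kind unless DESeq2 is named. In bulk RNA, fewer cells expressing a gene and less RNA per cell cannot be told apart.

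**Figure D1:**
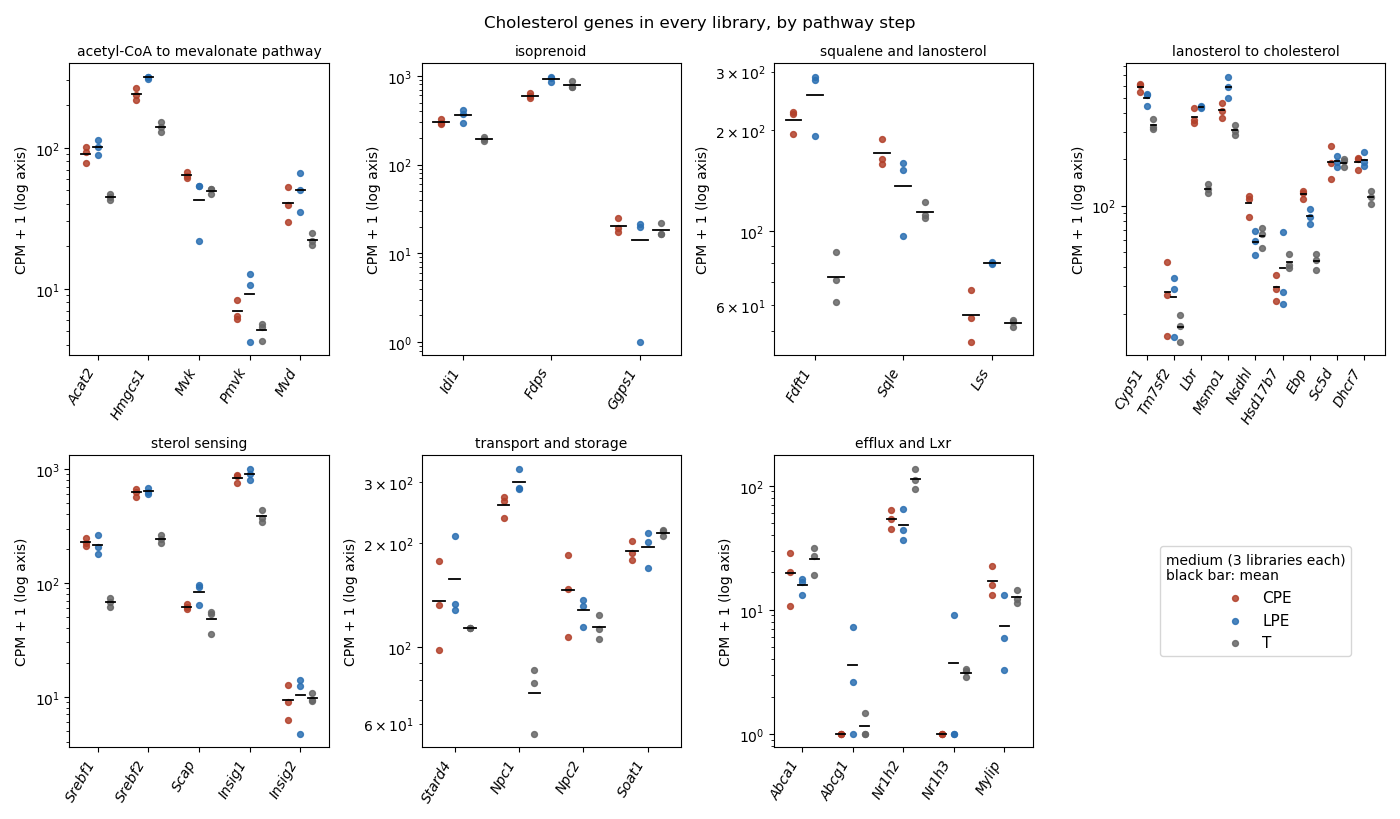
CPM plus 1 on a log axis for each of the 34 genes, in 7 panels by pathway step, with CPE left, LPE in the middle and T right for each gene. Points are the 3 libraries of a medium and black bars their means. Npc1, Lbr, Srebf1, Srebf2 and Insig1 have all 3 CPE and all 3 LPE libraries above all 3 T libraries.

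The first steps, to mevalonate and its phosphorylated products, were carried by 5 genes. Of these, 2 rose and 0 fell in CPE against T, and 3 rose and 0 fell in LPE against T. Acat2, which joins acetyl-CoA units, stood at 101, 91.5 and 77.0 CPM in CPE, 99.4, 88.0 and 113 CPM in LPE and 45.8, 43.4 and 41.4 CPM in T. All CPE and LPE libraries lay above all T libraries, while CPE and LPE overlapped. Its log2 fold change was 1.04 (SE 0.20, adjusted p = 0.00094) in CPE against T and 1.20 (SE 0.20, adjusted p = 0.00033) in LPE against T. RefSeq lists 2 pseudogenes of Acat2, so its counts are uncertain.

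Hmgcs1, which makes the HMG-CoA that leads to mevalonate, had 217, 236 and 263 CPM in CPE, 318, 316 and 306 CPM in LPE and 139, 128 and 150.2 CPM in T. The media did not overlap, with LPE highest, CPE between and T lowest. It rose 1.72-fold in CPE against T (log2 0.78, SE 0.13, adjusted p = 0.00025) and 2.25-fold in LPE against T (log2 1.17, SE 0.13, adjusted p = 7.3e-06). Mvd, which decarboxylates mevalonate diphosphate, had 38.0, 28.8 and 51.5 CPM in CPE, 48.9, 65.3 and 34.0 CPM in LPE and 20.7, 23.7 and 19.5 CPM in T. Every CPE and LPE library of Mvd was above every T library, with CPE and LPE overlapping. It rose in LPE against T (log2 1.21, SE 0.33, adjusted p = 0.011), a call lost without T replicate 3 (adjusted p = 0.0541). In CPE against T its log2 fold change of 0.88 (SE 0.33) lay at an adjusted p of 0.0503, and passed in 5 of 14 alternatives. These were DESeq2's size factors, the filter of 10 counts in 3 libraries, a fit of only CPE and T, thinning to equal depth and leaving out CPE replicate 2 (adjusted p of Mvd over all 14 = 0.0222 to 0.198). The mevalonate kinase gene Mvk averaged 63.0 ± 3.39 CPM in CPE, 41.7 ± 18.1 CPM in LPE and 48.6 ± 2.45 CPM in T (SD, n = 3 each) and was not called in any comparison. Mvk was at 20.8 CPM in LPE replicate 2, below every other library. Pmvk, the phosphomevalonate kinase gene, averaged 5.99 ± 1.20 CPM in CPE, 8.22 ± 4.48 CPM in LPE and 4.08 ± 0.731 CPM in T and was not called either.

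The isoprenoid step divided. Of its 3 genes, 1 rose (Idi1) and 1 fell (Fdps) in CPE against T, whereas 1 rose (Idi1) and 0 fell in LPE against T. Idi1, the isopentenyl diphosphate isomerase, had 288, 323 and 292 CPM in CPE, 294, 371 and 411 CPM in LPE and 194, 181 and 205 CPM in T. Both CPE and LPE lay above T and overlapped each other. Its log2 fold change was 0.64 (SE 0.14, adjusted p = 0.002) in CPE against T and 0.89 (SE 0.14, adjusted p = 0.00016) in LPE against T. Fdps, which makes farnesyl diphosphate for sterols and for protein prenylation, had 639.9, 586 and 557 CPM in CPE, 945, 979 and 844 CPM in LPE and 864, 755 and 756 CPM in T. All CPE libraries were below all LPE and all T libraries, and LPE overlapped T. Fdps fell in CPE against T (log2 -0.41, SE 0.10, adjusted p = 0.0051), and in LPE against T its log2 fold change was 0.22 (SE 0.10, adjusted p = 0.12). RefSeq lists 1 pseudogene of Idi1 and 5 of Fdps, so both are uncertain. Ggps1, which makes geranylgeranyl diphosphate, was not called in any comparison, with 19.4 ± 4.21 CPM in CPE and 17.2 ± 3.03 CPM in T. In LPE, Ggps1 had 0 reads in replicate 2 and 18.5 and 20.5 CPM in the other two.

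Of the 3 genes from farnesyl diphosphate to lanosterol, 2 rose and 0 fell in each of CPE and LPE against T. Fdft1, squalene synthase, had 223, 226 and 195 CPM in CPE, 289, 191 and 282 CPM in LPE and 85.1, 60.2 and 70.2 CPM in T. CPE and LPE overlapped and both were far above T. It rose 2.98-fold in CPE against T (log2 1.58, SE 0.18, adjusted p = 1e-05) and 3.53-fold in LPE against T (log2 1.82, SE 0.18, adjusted p = 3.2e-06). Sqle, the squalene epoxidase, had 158, 164 and 187 CPM in CPE, 158, 95.7 and 151 CPM in LPE and 110.2, 121 and 108 CPM in T. CPE lay above T, while LPE overlapped T through LPE replicate 2. Sqle rose in CPE against T (log2 0.59, SE 0.19, adjusted p = 0.024) and was not called in LPE against T (log2 0.26, SE 0.19, adjusted p = 0.34). The CPE call was lost without T replicate 1, 2 or 3 (adjusted p = 0.0861, 0.0535 and 0.0959) and without CPE replicate 2 or 3 (0.0519 and 0.0876), and the LPE value passed without LPE replicate 2 (0.0319).

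Lss, which closes squalene epoxide into lanosterol, had 65.5, 53.8 and 45.4 CPM in CPE, 78.6, 79.3 and 79.8 CPM in LPE and 52.9, 50.4 and 52.1 CPM in T. LPE was above both other media, which overlapped. Lss rose in LPE against T (log2 0.61, SE 0.21, adjusted p = 0.042) and was at 0.08 (SE 0.22, adjusted p = 0.81) in CPE against T. With T replicate 1, 2 or 3 left out, the adjusted p of Lss in LPE against T was 0.119, 0.126 or 0.129, and with LPE replicate 1 or 3 left out it was 0.0647 or 0.072. The call was also lost in a fit with the replicate number as a block (0.0584), without a filter on low counts (0.0697) and with libraries thinned to equal depth (0.0638).

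From lanosterol to cholesterol, 6 of 9 genes rose and 0 fell in CPE against T, and 5 of 9 rose and 0 fell in LPE against T. Lbr, the lamin B receptor, which is also a sterol reductase, had 344, 358 and 428 CPM in CPE, 427, 444 and 434 CPM in LPE and 121, 137 and 126 CPM in T. Every CPE and LPE library was more than double every T library. Its log2 fold change was 1.56 (SE 0.12, adjusted p = 2.4e-07) in CPE against T and 1.76 (SE 0.12, adjusted p = 1e-07) in LPE against T. Tm7sf2, which encodes the other reductase of this reaction, averaged 26.8 ± 14.4 CPM in CPE, 24.6 ± 10.3 CPM in LPE and 15.4 ± 3.24 CPM in T, and was not called.

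Ebp, the sterol isomerase, had 110.0, 119 and 123 CPM in CPE, 74.8, 83.9 and 94.2 CPM in LPE and 43.7, 37.1 and 47.4 CPM in T. The 3 media did not overlap, and here CPE was highest. Ebp rose 2.74-fold in CPE against T (log2 1.45, SE 0.19, adjusted p = 3.8e-05) and 1.97-fold in LPE against T (log2 0.98, SE 0.20, adjusted p = 0.0014). Msmo1, the C4-methylsterol oxidase, had 369, 462 and 412 CPM in CPE, 685, 500.1 and 586 CPM in LPE and 287, 331 and 304 CPM in T. Again no media overlapped, but LPE was highest. Msmo1 rose in CPE against T (log2 0.43, SE 0.13, adjusted p = 0.019) and in LPE against T (log2 0.94, SE 0.13, adjusted p = 6.5e-05). The CPE call of Msmo1 was lost without T replicate 1 or 3 (adjusted p = 0.0905 and 0.07) or CPE replicate 2 (0.096). Nsdhl, which works with Msmo1 in removing the methyl groups at C4, had 109, 114 and 83.4 CPM in CPE, 67.1, 46.6 and 58.0 CPM in LPE and 64.9, 52.1 and 70.2 CPM in T. CPE was above both other media, which overlapped. Nsdhl rose in CPE against T (log2 0.71, SE 0.22, adjusted p = 0.021) and was at -0.13 (SE 0.22, adjusted p = 0.72) in LPE against T. Its CPE call was lost without T replicate 1 or 2 (adjusted p = 0.0651 and 0.11) and without CPE replicate 1 or 2 (0.0625 and 0.0854), and RefSeq lists 1 Nsdhl pseudogene.

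Cyp51, the lanosterol demethylase, averaged 588 ± 35.2 CPM in CPE, 499 ± 48.4 CPM in LPE and 333 ± 27.0 CPM in T. It rose in CPE against T (log2 0.82, SE 0.11, adjusted p = 4.3e-05) and in LPE against T (log2 0.58, SE 0.11, adjusted p = 0.00096). Dhcr7, which makes cholesterol from 7-dehydrocholesterol, averaged 190.5 ± 18.5 CPM in CPE, 197 ± 20.8 CPM in LPE and 113 ± 11.1 CPM in T. It rose in CPE against T (log2 0.75, SE 0.15, adjusted p = 0.0011) and in LPE against T (log2 0.80, SE 0.15, adjusted p = 0.00079). Sc5d, the enzyme just before Dhcr7, was not called, with 192 ± 47.2 CPM in CPE, 193 ± 15.3 CPM in LPE and 189 ± 11.8 CPM in T. The 95% interval of its log2 fold change ran from -0.33 to 0.37 in CPE against T and from -0.33 to 0.38 in LPE against T. Hsd17b7, the sterol ketoreductase, averaged 28.6 ± 5.89 CPM in CPE, 38.4 ± 24.6 CPM in LPE and 42.0 ± 5.17 CPM in T and was not called, with LPE replicate 3 of Hsd17b7 at 66.7 CPM and the other two at 26.5 and 22.1 CPM.

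**Figure D2:**
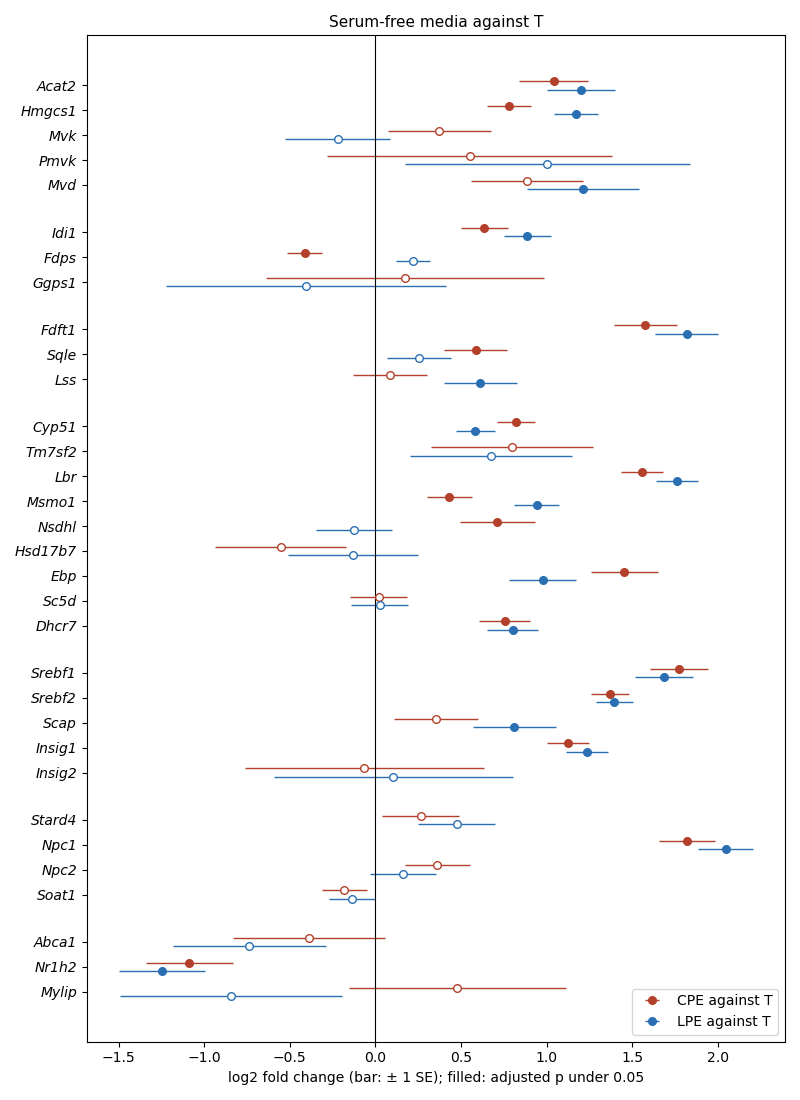
Log2 fold change of each tested gene in CPE against T and in LPE against T, with bars of 1 SE and filled points at an adjusted p under 0.05. Npc1 (1.82 and 2.05), Fdft1 (1.58 and 1.82) and Lbr (1.56 and 1.76) lie far to the right, while Nr1h2 (-1.09 and -1.25) lies to the left of 0 in both.

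Of the 5 sterol-sensing genes, 3 rose and 0 fell in CPE against T, and 4 rose and 0 fell in LPE against T. Srebf1, whose product is known for driving fatty acid as well as sterol genes, had 225, 246 and 210.3 CPM in CPE, 204, 177 and 262 CPM in LPE and 72.0, 67.2 and 60.4 CPM in T. CPE and LPE overlapped, and both lay above T. It rose 3.42-fold in CPE against T (log2 1.77, SE 0.17, adjusted p = 1.6e-06) and 3.22-fold in LPE against T (log2 1.69, SE 0.17, adjusted p = 2.9e-06). Srebf2, whose product mainly drives cholesterol genes, had 628, 673 and 570.1 CPM in CPE, 627, 679 and 600.3 CPM in LPE and 243, 260.0 and 222 CPM in T. The CPE and LPE values of Srebf2 interleaved well above T. It rose 2.58-fold in CPE against T (log2 1.37, SE 0.11, adjusted p = 2.6e-07) and 2.63-fold in LPE against T (log2 1.40, SE 0.11, adjusted p = 2.9e-07).

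Insig1, itself an Srebp target that holds Scap in the endoplasmic reticulum, had 880.0, 868 and 752 CPM in CPE, 1009, 797 and 895 CPM in LPE and 339, 439 and 369 CPM in T. CPE and LPE overlapped, and T lay below both. Insig1 rose 2.18-fold in CPE against T (log2 1.13, SE 0.12, adjusted p = 4.5e-06) and 2.36-fold in LPE against T (log2 1.24, SE 0.12, adjusted p = 2.3e-06). Insig2, its paralog, had 5.31, 11.8 and 8.05 CPM in CPE, 11.5, 3.73 and 13.1 CPM in LPE and 8.18, 9.84 and 8.37 CPM in T. All 3 media overlapped. Its log2 fold change was -0.06 (SE 0.70, adjusted p = 0.96) in CPE against T and 0.10 (SE 0.70, adjusted p = 0.93) in LPE against T. The 95% intervals of Insig2, from -1.55 to 1.42 and from -1.38 to 1.59, include changes as large as those of Insig1. Scap had 59.9, 57.5 and 64.1 CPM in CPE, 63.0, 94.2 and 91.7 CPM in LPE and 51.8, 34.7 and 54.9 CPM in T. LPE and CPE lay above T and overlapped each other. Scap rose in LPE against T (log2 0.81, SE 0.24, adjusted p = 0.019), a call lost without T replicate 2 (adjusted p = 0.106) or LPE replicate 3 (0.0579), and was at 0.35 (SE 0.24, adjusted p = 0.3) in CPE against T.

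Transport and storage was represented by 4 genes, of which 1, Npc1, rose in each of CPE and LPE against T and 0 fell. Npc1, which exports cholesterol from late endosomes and lysosomes, had 271, 264 and 234 CPM in CPE, 327, 287 and 286 CPM in LPE and 84.6, 55.0 and 77.7 CPM in T. The media did not overlap, and T was far below the other two. Npc1 rose 3.53-fold in CPE against T (log2 1.82, SE 0.16, adjusted p = 7.1e-07) and 4.13-fold in LPE against T (log2 2.05, SE 0.16, adjusted p = 2.9e-07). Reads on the opposite strand at Npc1 were 169, or 2.71% of the reads there. Npc2, the lysosomal protein that hands cholesterol to Npc1, averaged 145 ± 38.6 CPM in CPE, 126 ± 11.5 CPM in LPE and 113 ± 9.14 CPM in T. Npc2 was not called, but passed in CPE against T without CPE replicate 3 (adjusted p = 0.0339). Soat1, which esterifies cholesterol for storage, averaged 188 ± 12.4 CPM in CPE, 194 ± 23.2 CPM in LPE and 213 ± 4.69 CPM in T and was not called. Stard4, a cytosolic sterol carrier, averaged 135 ± 39.7 CPM in CPE, 156 ± 45.8 CPM in LPE and 112 ± 0.185 CPM in T and was not called.

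Efflux and Lxr genes were 5, of which 3 were tested, and 0 rose and 1 fell in each of CPE and LPE against T. Nr1h2, which encodes Lxr-beta, had 53.1, 44.1 and 62.8 CPM in CPE, 35.8, 64.3 and 42.6 CPM in LPE and 93.3, 137 and 109 CPM in T. CPE and LPE overlapped and both lay below T. It fell in CPE against T (log2 -1.09, SE 0.25, adjusted p = 0.0037) and in LPE against T (log2 -1.25, SE 0.25, adjusted p = 0.0016). Nr1h3, which encodes Lxr-alpha, had 0, 0 and 0 reads in CPE, 0, 26 and 0 reads in LPE and 4, 4 and 4 reads in T, too few to be tested. Abca1, the Lxr target that loads cholesterol onto lipoproteins, averaged 18.9 ± 9.0 CPM in CPE, 14.9 ± 2.41 CPM in LPE and 24.8 ± 6.25 CPM in T and was not called. Abcg1, another exporter, had 0, 0 and 0 reads in CPE, 5, 20 and 0 reads in LPE and 0, 0 and 1 read in T. Mylip, an Lxr target that marks lipoprotein receptors for degradation, averaged 16.2 ± 4.86 CPM in CPE, 6.45 ± 5.11 CPM in LPE and 11.6 ± 1.53 CPM in T and was not called in CPE against T or LPE against T.

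**Figure D3:**
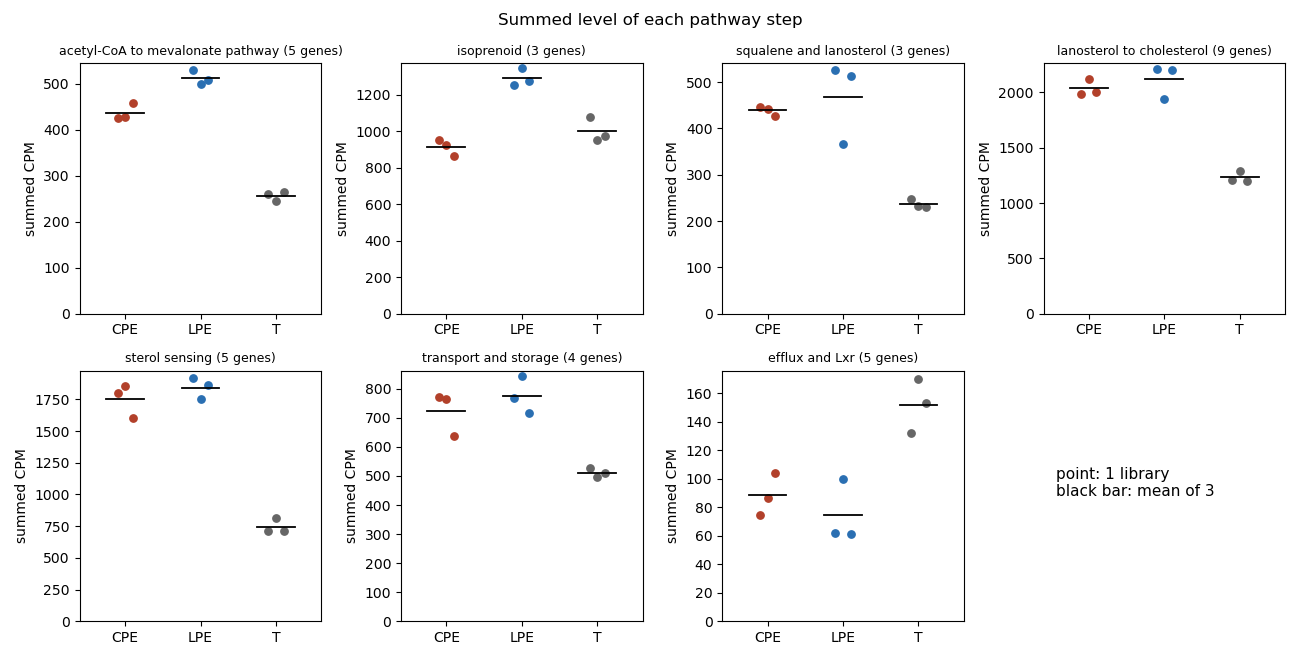
Summed CPM of the genes of each pathway step, with a point per library and a black bar at the mean, for CPE, LPE and T from left to right on axes that start at 0. Sterol sensing has the CPE libraries at 1605 to 1857 CPM, the LPE libraries at 1751 to 1915 CPM and the T libraries at 714 to 811 CPM. The efflux and Lxr sum, set mostly by Nr1h2, runs the other way.

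Summed per library, the 20 synthesis genes reached 3827 ± 80.6 CPM in CPE, 4394 ± 205 CPM in LPE and 2729 ± 63.5 CPM in T. The sum of the sterol-sensing genes was 1753 ± 132 CPM in CPE, 1842 ± 83.5 CPM in LPE and 746 ± 55.9 CPM in T. The isoprenoid sum, set mostly by Fdps, was lowest in CPE, at 915 ± 43.1 CPM in CPE, 1294 ± 49.1 CPM in LPE and 1002 ± 67.6 CPM in T. The efflux and Lxr sum, set mostly by Nr1h2, was highest in T, at 88.5 ± 14.5 CPM in CPE, 74.2 ± 21.9 CPM in LPE and 152 ± 19.1 CPM in T. Nr1h2 alone averaged 53.3 CPM in CPE, 47.6 CPM in LPE and 113 CPM in T. The other tested genes of that step, Abca1 and Mylip, were not called. These sums weight long and abundant transcripts most and are given as descriptions.

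CPE, with Chir99021 in place of Lif, was also compared with LPE. In CPE against LPE, 1 of 32 rose (Nsdhl), 3 fell (Hmgcs1, Fdps and Msmo1) and 28 were not called, where over all tested genes 9.56% rose and 8.23% fell. With so few members called, these counts are not read as a trait of the set. The median log2 fold change was -0.08, against 0.01 over all genes. Fdps, whose CPE values all lay below its LPE values, fell by 0.63 on the log2 scale (SE 0.10, adjusted p = 0.0004), with a 95% interval from -0.85 to -0.42. Msmo1 fell by 0.51 (SE 0.13, adjusted p = 0.011), a call lost without LPE replicate 1 (adjusted p = 0.0601) or CPE replicate 1 (0.0511). Nsdhl rose by 0.84 on the log2 scale (SE 0.22, adjusted p = 0.013). With CPE replicate 2 left out, its adjusted p was 0.0597. Thus Msmo1 and Nsdhl, which act in the same reaction series, had opposite signs between CPE and LPE. Hmgcs1 fell by 0.39 (SE 0.12, adjusted p = 0.038). Its call was lost without LPE replicate 1, 2 or 3 (adjusted p of Hmgcs1 = 0.0753, 0.0534 and 0.0666), without CPE replicate 1 or 2 (0.111 and 0.0947), with only CPE and LPE in the fit (0.0671) and with a replicate block (0.0515).

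None of the 5 sensing genes was called in CPE against LPE by edgeR or DESeq2, and 0 had an unadjusted p under 0.05. The 95% interval of the log2 fold change in CPE against LPE was -0.25 to 0.20 for Srebf2, -0.25 to 0.42 for Srebf1 and -0.36 to 0.14 for Insig1, so changes as large as those against T lay outside it. Their adjusted p-values were 0.9 for Srebf2, 0.77 for Srebf1 and 0.58 for Insig1, which do not show that the levels were equal. Scap was at -0.46 (SE 0.24, adjusted p = 0.21, interval -0.96 to 0.04), and Insig2 at -0.17 (SE 0.69, adjusted p = 0.9, interval -1.63 to 1.29). Npc1 was lower in every CPE library than in every LPE library, at log2 -0.23 (SE 0.15), but did not pass (adjusted p = 0.34). Lss at -0.53 (SE 0.21, adjusted p = 0.098) and Ebp at 0.48 (SE 0.18, adjusted p = 0.089) also had libraries that did not overlap and missed the threshold. Sqle at 0.33 (SE 0.18, adjusted p = 0.24) and Mvd at -0.33 (SE 0.31, adjusted p = 0.53) were not called. Nr1h2 was at 0.16 (SE 0.25, adjusted p = 0.72). Mylip was at 1.32 (SE 0.64, adjusted p = 0.18) and passed without LPE replicate 1 (log2 2.16, adjusted p = 0.0392).

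**Figure D4:**
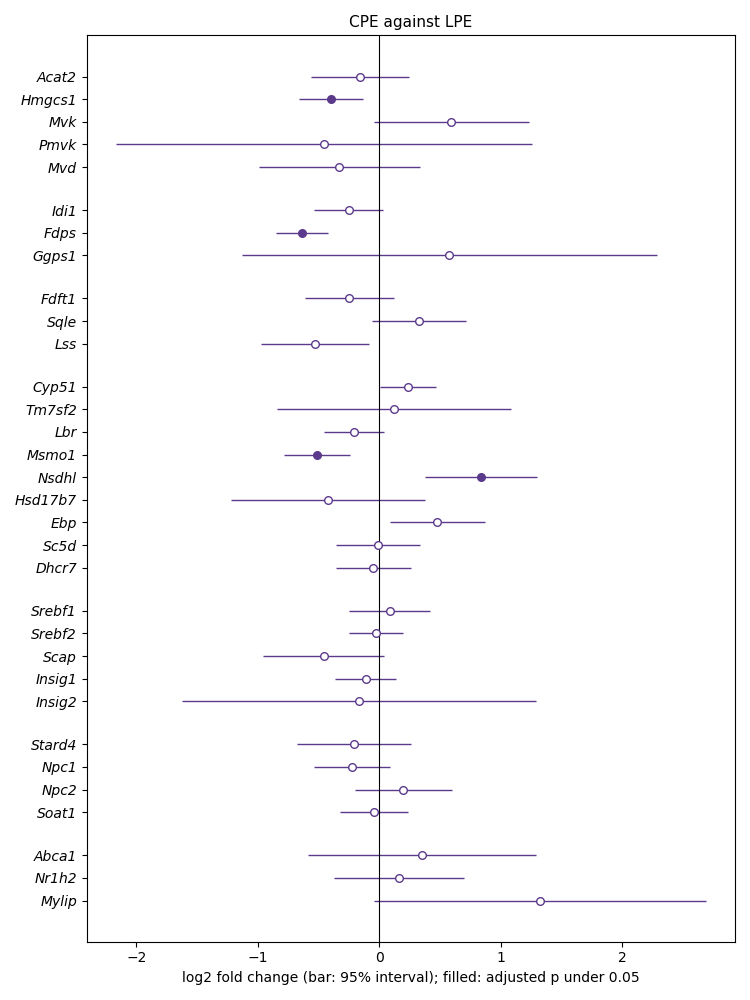
Log2 fold change in CPE against LPE for each tested gene, with bars of the 95% interval and filled points at an adjusted p under 0.05. Filled points are Nsdhl at 0.84, to the right of 0, and Fdps at -0.63, Msmo1 at -0.51 and Hmgcs1 at -0.39, to the left.

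Other genes of sterol and lipid handling, 87 in number and chosen with earlier results of these data known, were counted beside the set, and 73 could be tested. In CPE against T, 21 rose, 5 fell and 47 did not pass, in LPE against T, 15 rose, 2 fell and 56 did not pass, and in CPE against LPE, 6 rose, 5 fell and 62 did not pass. Over all genes tested, 16.8% rose and 15.3% fell in CPE against T, 15.0% rose and 14.7% fell in LPE against T, and 9.56% rose and 8.23% fell in CPE against LPE. The shares of the list in CPE against LPE were no larger than these, and counts of its small groups are given as descriptions. Of 12 fatty acid genes known as Srebp targets, 8 rose and 0 fell in CPE against T, 8 rose and 0 fell in LPE against T, and 1 rose (Me1) and 0 fell in CPE against LPE. For the 0 that fell in CPE against LPE, DESeq2 called 2 lower and 2 were lower at an unadjusted p under 0.05. Fasn, the fatty acid synthase, averaged 2889.6 ± 514 CPM in CPE, 3650.2 ± 303 CPM in LPE and 472 ± 61.7 CPM in T. It rose in CPE against T (log2 2.61, SE 0.13, adjusted p = 2.4e-09) and in LPE against T (log2 2.95, SE 0.13, adjusted p = 2.2e-09). Elovl5, a fatty acid elongase, averaged 37.1 ± 8.45 CPM in CPE, 22.2 ± 4.53 CPM in LPE and 8.14 ± 2.65 CPM in T, and rose in CPE against T (log2 2.18, SE 0.40, adjusted p = 0.00067). Elovl5 also rose in LPE against T (log2 1.44, SE 0.40, adjusted p = 0.013), a call lost without T replicate 2 (adjusted p = 0.0728). The desaturase gene Scd1 averaged 883 ± 252 CPM in CPE, 903 ± 135 CPM in LPE and 258 ± 6.02 CPM in T, and rose in LPE against T (log2 1.81, SE 0.18, adjusted p = 2.2e-06). Scd1 rose in CPE against T as well (log2 1.77, SE 0.18, adjusted p = 2.1e-06). Me1, the malic enzyme that supplies NADPH, averaged 212 ± 29.5 CPM in CPE and 147 ± 21.2 CPM in LPE and rose in CPE against LPE (log2 0.53, SE 0.17, adjusted p = 0.041). That call was lost with only CPE and LPE in the fit and without LPE replicate 2 or 3 or CPE replicate 1 or 2 (highest adjusted p of Me1 = 0.161).

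A list of 14 tested genes covered Srebp processing, sterol-regulated degradation and related genes, with Tecr and Nus1 among the related genes. Of these 14, 6 rose and 1 fell in CPE against T, and 2 rose and 1 fell in LPE against T. Between CPE and LPE, 2 rose and 2 fell in CPE. In CPE against T, 2 of these 14 rose without T replicate 1 and 3 rose without T replicate 3, against 6 with all libraries. Tmem97, a sterol-binding protein of the endoplasmic reticulum, was the gene that fell against T, and its LPE call was lost without T replicate 1 or LPE replicate 3 (highest adjusted p = 0.0854). Syvn1, a ubiquitin ligase of the endoplasmic reticulum, averaged 62.1 ± 3.34 CPM in CPE, 49.0 ± 7.65 CPM in LPE and 27.0 ± 3.30 CPM in T. It rose in CPE against T (log2 1.20, SE 0.25, adjusted p = 0.0017) and in LPE against T (log2 0.86, SE 0.25, adjusted p = 0.017). In LPE against T, Syvn1 missed the threshold when any 1 of the T libraries or LPE replicate 3 was left out (highest adjusted p = 0.0837). Rnf139, a ubiquitin ligase with a sterol-sensing domain, averaged 99.3 ± 2.17 CPM in CPE, 49.1 ± 12.7 CPM in LPE and 52.6 ± 3.30 CPM in T, and rose in CPE against T (log2 0.91, SE 0.23, adjusted p = 0.0056). Pgrmc1, a partner of Insig1, averaged 217 ± 31.5 CPM in CPE and 106 ± 22.5 CPM in LPE and rose in CPE against LPE (log2 1.04, SE 0.18, adjusted p = 0.00074). Nus1, which is known to stabilise Npc2, averaged 129.6 ± 2.39 CPM in LPE and 75.3 ± 8.54 CPM in T and rose in LPE against T (log2 0.78, SE 0.17, adjusted p = 0.0024). Nus1 also rose in CPE against T (log2 0.54, SE 0.17, adjusted p = 0.023), a call kept in 10 of 14 alternatives. Tecr fell in CPE against LPE (log2 -1.19, SE 0.39, adjusted p = 0.048), with 16.0 ± 6.46 CPM in CPE and 36.4 ± 11.5 CPM in LPE, and kept its call in 6 of 14 alternatives. It was lost without LPE replicate 2 or 3 and without CPE replicate 1, 2 or 3 (highest adjusted p of Tecr = 0.13).

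Uptake receptors and their adaptors moved in both directions. Of 9 tested, 4 rose and 3 fell in CPE against T, 3 rose and 0 fell in LPE against T (1 was lower at an unadjusted p under 0.05), and 1 rose and 3 fell in CPE against LPE. Without T replicate 2 or without CPE replicate 1, 2 of the 9 rose in CPE against T, against 4 with all libraries. Lrp1, a large endocytic receptor, averaged 25.7 ± 14.4 CPM in CPE, 21.1 ± 4.64 CPM in LPE and 7.35 ± 3.38 CPM in T. It rose in CPE against T (log2 1.81, SE 0.52, adjusted p = 0.014) and in LPE against T (log2 1.52, SE 0.52, adjusted p = 0.037). The CPE call of Lrp1 was lost without T replicate 2 or 3 or CPE replicate 1 (highest adjusted p = 0.0956), and the LPE call when T replicate 2 or 3, or LPE replicate 1 or 3, was left out (highest 0.16) and with counts on either strand (0.0515). Scarb2, a lysosomal membrane protein, averaged 134 ± 37.4 CPM in CPE, 247 ± 37.1 CPM in LPE and 82.7 ± 15.8 CPM in T and rose in LPE against T (log2 1.57, SE 0.21, adjusted p = 5.3e-05). Scarb2 also rose in CPE against T (log2 0.70, SE 0.21, adjusted p = 0.0202), a call kept in 10 of 14 alternatives. Sort1, a sorting receptor, had 0, 8.40 and 4.19 CPM in CPE, 9.59, 0 and 9.29 CPM in LPE and 49.1, 26.6 and 44.6 CPM in T. It fell in CPE against T (log2 -3.22, SE 1.01, adjusted p = 0.023), a call lost in DESeq2 (adjusted p of Sort1 = 0.13), with a replicate block (0.0566) and without T replicate 1 or 3 or CPE replicate 3 (highest 0.0875). Dab2, an endocytic adaptor also used as a primitive endoderm marker, averaged 210.4 ± 34.0 CPM in CPE and 519 ± 92.1 CPM in LPE and fell in CPE against LPE (log2 -1.30, SE 0.15, adjusted p = 1.6e-05). Lrpap1, a chaperone of lipoprotein receptors, averaged 445 ± 19.4 CPM in CPE and 858 ± 48.8 CPM in LPE and fell in CPE against LPE (log2 -0.95, SE 0.10, adjusted p = 7.2e-06). Beside Sort1, the genes that fell in CPE against T were Dab2 (log2 -1.32, SE 0.15) and Lrpap1 (log2 -0.83, SE 0.10). Unlike Sort1, both kept that call in 14 of 14 alternatives.

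The remaining groups held few calls. Of 16 genes of intracellular sterol transport and esters, 1 rose and 0 fell in CPE against T, edgeR called 0 in LPE against T, and 1 rose and 0 fell in CPE against LPE, in each case Osbpl5. For the 0 in LPE against T, DESeq2 called 0 and 1 had an unadjusted p under 0.05, but 2 rose without LPE replicate 1 and 1 fell without LPE replicate 2. Osbpl5, an oxysterol-binding protein family member, averaged 76.9 ± 24.9 CPM in CPE, 39.1 ± 5.09 CPM in LPE and 34.6 ± 2.71 CPM in T. It rose in CPE against T (log2 1.15, SE 0.27, adjusted p = 0.0044) and in CPE against LPE (log2 0.98, SE 0.27, adjusted p = 0.018), the call against LPE being lost without LPE replicate 3 or CPE replicate 2 (highest adjusted p of Osbpl5 = 0.113). Of 9 genes of oxysterols, efflux and Lxr partners, 1 rose and 0 fell in each comparison, Abca2 against T and Lpcat3 in CPE against LPE. Lpcat3, a phospholipid-remodelling enzyme, lost its call with only CPE and LPE in the fit and without LPE replicate 2 or CPE replicate 1 or 2 (highest adjusted p = 0.098). Abca2, a lysosomal transporter, averaged 49.1 ± 8.48 CPM in CPE, 46.2 ± 14.8 CPM in LPE and 16.2 ± 3.99 CPM in T, with a log2 fold change of 1.59 (SE 0.33, adjusted p = 0.0016) in CPE against T and 1.50 (SE 0.33, adjusted p = 0.0028) in LPE against T. Of 13 genes that use isoprenoids outside sterol synthesis, 1 rose (Rabggta) and 1 fell (Icmt) in each of CPE and LPE against T, and 0 were called in CPE against LPE by edgeR, by DESeq2 or at an unadjusted p under 0.05. The rise of Rabggta, a subunit of a prenyl transferase, was lost without T replicate 3 in both comparisons and without CPE replicate 2 in CPE against T (highest adjusted p = 0.0853 in CPE against T and 0.0831 in LPE against T). Icmt, which methylates prenylated proteins, averaged 30.9 ± 9.62 CPM in CPE, 35.2 ± 6.31 CPM in LPE and 97.9 ± 2.07 CPM in T. It fell in CPE against T (log2 -1.66, SE 0.27, adjusted p = 0.0002) and in LPE against T (log2 -1.47, SE 0.27, adjusted p = 0.00061).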

How the data were processed

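Each of the 9 libraries came as 1 deposited table of raw read counts per gene from the authors. Total RNA was depleted of ribosomal RNA and made into strand-keeping, paired-end libraries with random primers and PCR, per the labels' protocols. The submitters' processing notes list build rn6, STAR 2.5.1, Trimmomatic 0.33, CASAVA 1.8.2 and DESeq2, the last without a version. The gene annotation behind the counts was not given in the sources used here. Per the file layout there are 4 columns without a header, and column 4, the gene's strand, was used, since the opposite strand held 0.822% to 0.986% of the reads. Only reads with 1 mapping place count for a gene, 7.96% to 14.8% of a library, and ambiguous reads (1.11% to 2.46%) do not, so genes with near-identical copies are uncertain. The 4 summary lines of each table name no gene and entered neither the library sizes nor any test.

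The test was edgeR's quasi-likelihood F test (edgeR 4.0.16, R 4.3.3; TMM; filterByExpr with at least 10 counts, 15 in total), fitted to all 9 libraries with 1 mean for each medium, and p-values were adjusted by Benjamini-Hochberg over 9130 genes and called under 0.05. SE of a log2 fold change is its size over the square root of F. At these depths 1 count was worth 0.227 to 0.579 CPM. In genes with 20 to 99 counts, the variance between replicates was 7.38 to 11.7 times that of sampling in CPE, 9.93 to 15.6 times in LPE and 1.35 to 2.05 times in T, while the fit uses 1 estimate of the spread for every medium. Alternatives were other size factors and filters, DESeq2 1.42.0, the fit of only the groups compared, a replicate block, both strands, thinning to 1698764 reads and leaving out each library.

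The members and lists were chosen with earlier results of these data known. Every member is named, with full statistics for the 2 largest called changes of each step and comparison and for all sensing genes. Of other lists, up to 2 called genes with the largest change and at least 5 CPM are named, and some others are not reported here. Gene names, pseudogenes and promoters come from RefSeq tables of GRCr8. Pseudogenes were found only by a symbol made of the gene's name and ps. Copies under other names were not looked for, so a gene without a listed pseudogene may still have some.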

Additional observations from a re-analysis of the deposited data

How the results depend on the processing

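Of 38 called results of members, 29 kept their call in all 14 alternatives (14 of 17 in CPE against T, 14 of 17 in LPE against T and 1 of 4 in CPE against LPE, Fdps), and 0 changed direction. Leaving out 1 library gave 0 to 2 members higher and 1 to 3 lower in CPE against LPE, 12 to 15 higher and 2 lower in CPE against T, and 14 to 17 higher and 1 lower in LPE against T. With only CPE and LPE in the fit, 1 was higher and 2 lower. Over all tested genes, deviations of same-numbered libraries from their medium means correlated at -0.0266 to 0.0118. No shared deviation was seen, which does not exclude that libraries were paired. A replicate block gave 15 higher and 2 lower in CPE against T, 15 and 1 in LPE against T, and 1 and 2 in CPE against LPE. Over all genes, no setting moved a comparison's called total by 1.5 times, but leaving out a T library lowered the genes called lower in LPE against T to 892 to 912, against 1343.

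Signs changed for 22 of 96 results of members, none of them called, and the cause was not tested. Thinning to equal depth put Insig2 at 0.077 in CPE against T, -0.085 in LPE against T and 0.16 in CPE against LPE (log2). Leaving out 1 library, log2 fold changes in CPE against T ranged over -0.018 to 0.32 for Ggps1, -0.065 to 0.20 for Lss, -0.18 to 0.17 for Sc5d and -0.40 to 0.17 for Insig2. In LPE against T they ranged over -0.41 to 0.12 for Mvk, -0.88 to 0.20 for Ggps1, -0.25 to 0.016 for Nsdhl, -0.79 to 0.16 for Hsd17b7, -0.021 to 0.089 for Sc5d and -0.20 to 0.50 for Insig2. In CPE against LPE they ranged over -0.0094 to 1.06 for Ggps1, -0.35 to 0.44 for Tm7sf2, -0.70 to 0.24 for Hsd17b7, -0.21 to 0.15 for Sc5d, -0.11 to 0.044 for Dhcr7, -0.038 to 0.26 for Srebf1, -0.09 to 0.034 for Srebf2, -0.55 to 0.14 for Insig2, -0.45 to 0.056 for Stard4, -0.13 to 0.028 for Soat1, -0.036 to 0.66 for Abca1 and -0.0048 to 0.44 for Nr1h2. With 26 and 38 reads over all libraries, Abcg1 and Nr1h3 could not be tested.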
